A study of Homo sapiens with 6 samples.

Results

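In MYC chromatin immunoprecipitation sequencing (ChIP-seq) of ONS76 cells, 327 places bound on chromosomes 1 to 22 were at least 2000 bp wide, out of 17133 places that had peaks in at least 2 of the 3 MYC peak lists. They were chosen by width alone. Peaks of the 3 lists that overlapped by 1 bp or more were merged, places with peaks from 2 or more lists were kept as the consensus, and the width of a place ran from the smallest start to the largest end of its peaks. The broad places were 1.91% of the consensus in number and held 773.3 kb, or 5.71%, of its length. Width, the number of peaks per list and fold enrichment all came from the same peaks as the choice, so they are given as descriptions with no test. ONS76 is an established human medulloblastoma line, and the cells used here were labelled as carrying an inducible SOX2 construct in all groups. The study's ChIP-seq methods and the sample titles name them only as ONS76. Per the study, SOX2 was not elevated in the cells used for ChIP-seq. The MYC group had 3 libraries made with the Y69 antibody and the normal IgG group had 3, and only the MYC peak lists were analysed here. Per the study's methods, immunoprecipitations from a single batch of chromatin were combined. No source used here says that the replicates were grown separately, so the spread between them may be technical.

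MYC is a basic helix-loop-helix leucine zipper protein that binds DNA as a dimer with MAX, preferentially at E-box motifs, and in proliferating cells it is found mostly at open promoters and enhancers. A sequence-specific factor crosslinked at one site gives a narrow pile of fragments with one summit, the position where most fragments overlap. A wide region can hold several neighbouring sites, or signal that spreads along open chromatin around one site, and a peak list reports either as one long peak or as several short ones. Genes, promoters and sequence at the broad places are not given, because the peaks carry hg19 coordinates while the genome at hand was hg38.

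The 3 lists differed in depth. The genome-wide background, meaning the fragment pile-up at every base if all fragments were scattered evenly, was 7.79, 5.84 and 4.76 in replicates 1, 2 and 3. On chromosomes 1 to 22 the lists carried 24529, 16612 and 17098 peaks. Single peaks that alone reached 2000 bp numbered 247, 71 and 76, or 1.01%, 0.427% and 0.444% of each list. The lists also differed in the distance over which neighbouring stretches of signal had been joined. The closest neighbouring peaks were 253 bp apart in replicate 1, 234 bp in replicate 2 and 230 bp in replicate 3, and the narrowest peaks were 252 bp, 233 bp and 229 bp wide.

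The broad places were mostly a little over the threshold. Their median width was 2261 bp, with quartiles of 2115 bp and 2488 bp, and 74 reached 2500 bp, 18 reached 3000 bp and the widest was 4916 bp. Peaks from all 3 lists were present at 326 of the 327 (99.7%), against 95.2% of the 3822 consensus places of 1000 bp to under 2000 bp and 71.7% of all 16806 narrower ones. The exception lay on chromosome 14 from 69444472 to 69446489, where replicate 1 had 1 peak, replicate 3 had 2 and replicate 2 had none. No place covered by a single list reached 2000 bp. Merging the peaks of a further list can only widen a place, so the choice by width favours presence in all 3 lists. The longest single peak of a broad place had a median width of 2166 bp. At 56 places (17.1%) no peak of any list reached 2000 bp, and the width arose only by joining staggered peaks of different lists. The longest peak at these 56 places ranged from 1066 bp to 1993 bp.

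Places on either side of the threshold overlapped in fold enrichment, which is the pile-up at the summit over the local background. The narrowest members were 2003 bp on chromosome 14 from 21736444, 2004 bp on chromosome 11 from 95522410, 2006 bp on chromosome 11 from 67069685, 2009 bp on chromosome 1 from 150550853 and 2010 bp on chromosome 1 from 65612911. In replicate 1 their strongest peaks had fold enrichments of 7.79, 8.24, 5.26, 5.07 and 7.99. The widest places left out ran on chromosome 1 from 23345589 to 23347587, chromosome 6 from 27804971 to 27806969, chromosome 1 from 154297185 to 154299182, chromosome 8 from 128865567 to 128867564 and chromosome 17 from 73029735 to 73031730, the last of these 1996 bp wide. In replicate 1 these had 15.3, 12.9, 6.37, 11.3 and 7.502. The number of members depended on the threshold, and 1167 places reached 1500 bp.

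The lists did not cover the broad places equally. Peaks of replicate 1 covered a median of 98.5% of the merged width, peaks of replicate 2 74.7% and peaks of replicate 3 76.5%. At narrower consensus places where the list had a peak, the medians were 98.7%, 74.2% and 74.9%. The unequal cover was therefore not particular to broad places. At broad places a median of 62.9% of the width lay under peaks of all 3 lists at once, with quartiles of 45.8% and 75.4%. At 288 of 326 places replicate 1 covered more bases than replicate 2, and at 291 more than replicate 3. Replicates 2 and 3 were close to each other, with replicate 2 the longer at 147 of 326 places (45.1%). The place with no peak in replicate 2 was not counted in these comparisons. The same counts were not made over all consensus places. Without replicate 1 only 138 places reached 2000 bp, against 299 without replicate 2 and 286 without replicate 3.

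The number of peaks per place also followed the list. Replicate 1 had 1 peak at 291 of the 327 broad places and 2 or more at 36 (11.0%). In replicates 2 and 3 there were 2 or more peaks at 143 places each (43.7%), and 3 or more at 20 and 21 places, against 5 in replicate 1. Over all consensus places, the share with 2 or more peaks was 0.695%, 3.28% and 3.51% in replicates 1, 2 and 3. Exactly 1 peak in each of the 3 lists was seen at 116 places (35.5%). The next most frequent patterns were 1 peak in replicate 1 with 2 in each of the others, at 58 places, 1 peak in replicates 1 and 2 with 2 in replicate 3, at 48 places, and 1 in replicates 1 and 3 with 2 in replicate 2, at 44 places.

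At the other 211 broad places, 64.5% of the members (95% exact binomial interval 59.1% to 69.7%), a peak of one list spanned 2 or more peaks of another. Among all consensus places the share was 5.64%, and among the 3822 places of 1000 bp to under 2000 bp it was 18.7%. Longer merged places have more room for such spans. The merging also makes a span nearly certain wherever a list has 2 or more peaks in a place. None of the 17133 consensus places had several peaks in a list without a span. The spanning peak came from replicate 1 at 185 broad places (56.6%), from replicate 2 at 65 (19.9%) and from replicate 3 at 67 (20.5%). In 92 places replicate 1 alone did so, against 7 for replicate 2 alone and 14 for replicate 3 alone. Replicate 1 spanned several peaks of both other lists at 79 places. Where replicate 2 had 2 or more peaks, a single peak of replicate 1 spanned at least 2 of them in 90.9% of places, and the corresponding share for replicate 3 was 93.7%. Over all consensus places these shares were 93.6% and 94.7%, so they were not higher at broad places. Replicate 1 also led among the 967 consensus places with a span, at 843 of them against 249 for replicate 2 and 260 for replicate 3. In the opposite direction, peaks of replicate 2 spanned several peaks of replicate 1 at 17 places and peaks of replicate 3 did so at 24. Between replicates 2 and 3 the numbers were close, at 58 places for replicate 2 over replicate 3 and 56 for replicate 3 over replicate 2.

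**Figure D1:**
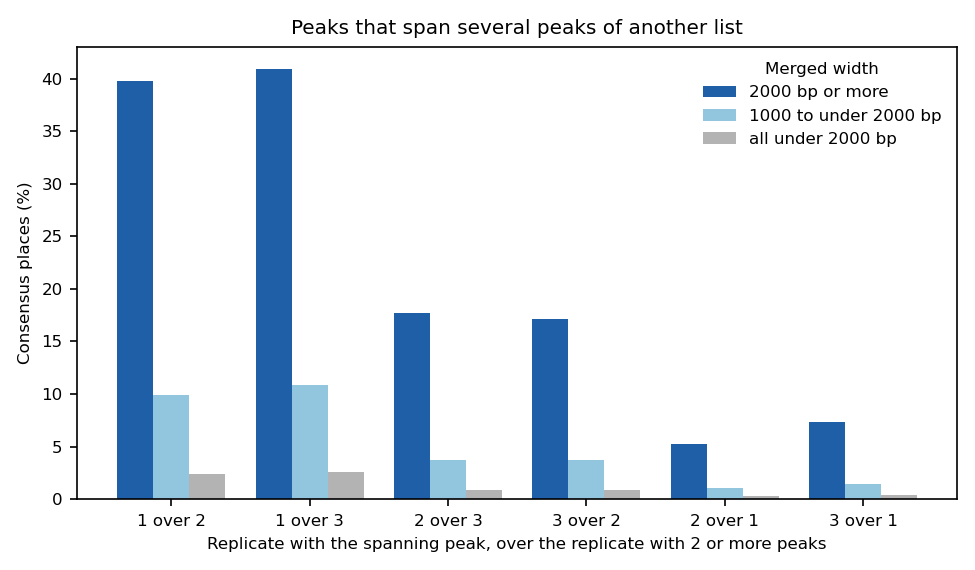
Bars give the percentage of consensus places in which a peak of the first replicate named overlapped 2 or more peaks of the second, for places of 2000 bp or more (327), of 1000 bp to under 2000 bp (3822) and of any width under 2000 bp (16806). Replicate 1 over replicate 2 or 3 reached 39.8% and 41.0% of broad places, against 17.7% and 17.1% between replicates 2 and 3 and 5.20% and 7.34% over replicate 1.

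The stretches between split peaks were short relative to the places. In replicate 2 the 163 gaps between neighbouring peaks inside broad places had a median of 367 bp and ranged from 237 bp to 1688 bp. The 166 gaps of replicate 3 had a median of 330.5 bp and reached 1200 bp, and the 41 gaps of replicate 1 had a median of 326 bp and reached 841 bp. Nearly all gaps were covered by an unbroken peak of another list, 162 of 163 in replicate 2, 165 of 166 in replicate 3 and 40 of 41 in replicate 1. The merging makes this nearly certain, because peaks of one list share a place only through overlapping peaks of the other lists. A peak of replicate 1 covered 146 of the gaps in replicate 2 and 152 of those in replicate 3. Of these, 132 and 131 were longer than 252 bp, the longest break that could have been joined inside a peak of replicate 1, judged from the spacing of its peaks. Replicate 1, with the most spans, also had the highest genome-wide background and the longest joining distance. The part of either in the spans was not tested, and they cannot be told apart in these libraries.

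Peaks that were split in a list were of unequal strength. For neighbouring peaks of the same list inside a broad place, the lower fold enrichment was a median of 0.638, 0.649 and 0.610 of the higher in replicates 1, 2 and 3. The ratio ran from 0.131, 0.135 and 0.112 up to values close to 1. Strong peaks with a weak flank and neighbours of similar strength were both present.

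The widest place showed both forms. It lay on chromosome 7 from 5465273 to 5470188 and held 3, 3 and 4 peaks in replicates 1, 2 and 3. Their summits fell into 5 groups over 4602 bp, where summits were placed in one group if neighbours were at most 200 bp apart. The strongest group lay between 1063 bp and 1075 bp from the start of the place in all 3 lists, with fold enrichments of 13.01, 9.94 and 12.6. A second group had summits at 4678 bp in replicate 1 and 4708 bp in replicate 2, with fold enrichments of 8.81 and 5.67. Between them, replicates 2 and 3 each had a peak with its summit at 2314 bp and 2324 bp, and the 3255 bp peak of replicate 1 ran across that position without a summit of its own there. Replicate 3 had its last summit at 4449 bp, outside the group of the other lists.

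Other wide places had one clear summit. The third widest, on chromosome 2 from 43451277 to 43455178, was 1 peak in each list, 3902 bp, 3229 bp and 3413 bp long. Its summits lay 3038 bp, 3044 bp and 3043 bp from the start, so a place of 3902 bp had its 3 summits within 6 bp. Fold enrichment was 30.1, 19.1 and 24.8 on 271, 139 and 142 fragments. On chromosome 16 from 4320882 to 4324267 the main summits lay at 458 bp, 482 bp and 463 bp, close to one edge, with fold enrichments of 28.1, 21.95 and 26.7. Replicates 1 and 2 had 1 peak there, and replicate 3 had a further peak of 299 bp with a fold enrichment of 3.30 at the far end.

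Another form had no summit position that the lists shared. On chromosome 19 from 50093208 to 50096702 the single peak of replicate 1 was 3495 bp long with its summit at 209 bp and a fold enrichment of 6.40. Replicate 2 had 3 peaks with summits at 603 bp, 2082 bp and 2699 bp, and replicate 3 had 1 peak with its summit at 1461 bp. The strongest peaks of replicates 2 and 3 both reached 5.41-fold. The 5 summits formed 5 groups, none of them found in 2 lists. The direction of spanning was reversed on chromosome 17 from 42294946 to 42298223. There replicate 3, the library with the lowest genome-wide background, had 1 peak of 3264 bp, while replicates 1 and 2 each had 3 peaks with summits near 1127 bp, 2280 bp and 2913 bp in replicate 1 and 1163 bp, 2270 bp and 2977 bp in replicate 2.

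The other wide places and those with the most peaks fell between these forms. On chromosome 7 from 100462958 to 100466272 a peak of 3117 bp in replicate 1 spanned 3 peaks in each of the other lists. All 3 lists had their strongest summit there within 2 bp, at 1793 bp, 1795 bp and 1795 bp from the start, with fold enrichments of 20.4, 16.5 and 18.5. The flanking peaks of replicates 2 and 3 were weaker, between 3.10-fold and 6.13-fold. The second widest place, on chromosome 6 (20401104 to 20405107), likewise had 1 peak of 3798 bp in replicate 1 and a strong peak with a weaker one beside it in the others, at 13.8-fold and 4.89-fold in replicate 2 and 17.02-fold and 6.43-fold in replicate 3. The place on chromosome 19 from 55894776 to 55897939 had many peaks of similar strength, 2 in replicate 1, 3 in replicate 2 and 4 in replicate 3. Fold enrichment over these 9 peaks ran from 2.79 to 5.73, and none of them reached 2000 bp. On chromosome 2 from 20422784 to 20425463, which had 2, 3 and 3 peaks, the strongest summits lay at 352 bp, 356 bp and 361 bp with 13.7-fold, 8.63-fold and 7.47-fold, and the remaining 5 peaks lay between 3.13-fold and 4.55-fold.

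**Figure D2:**
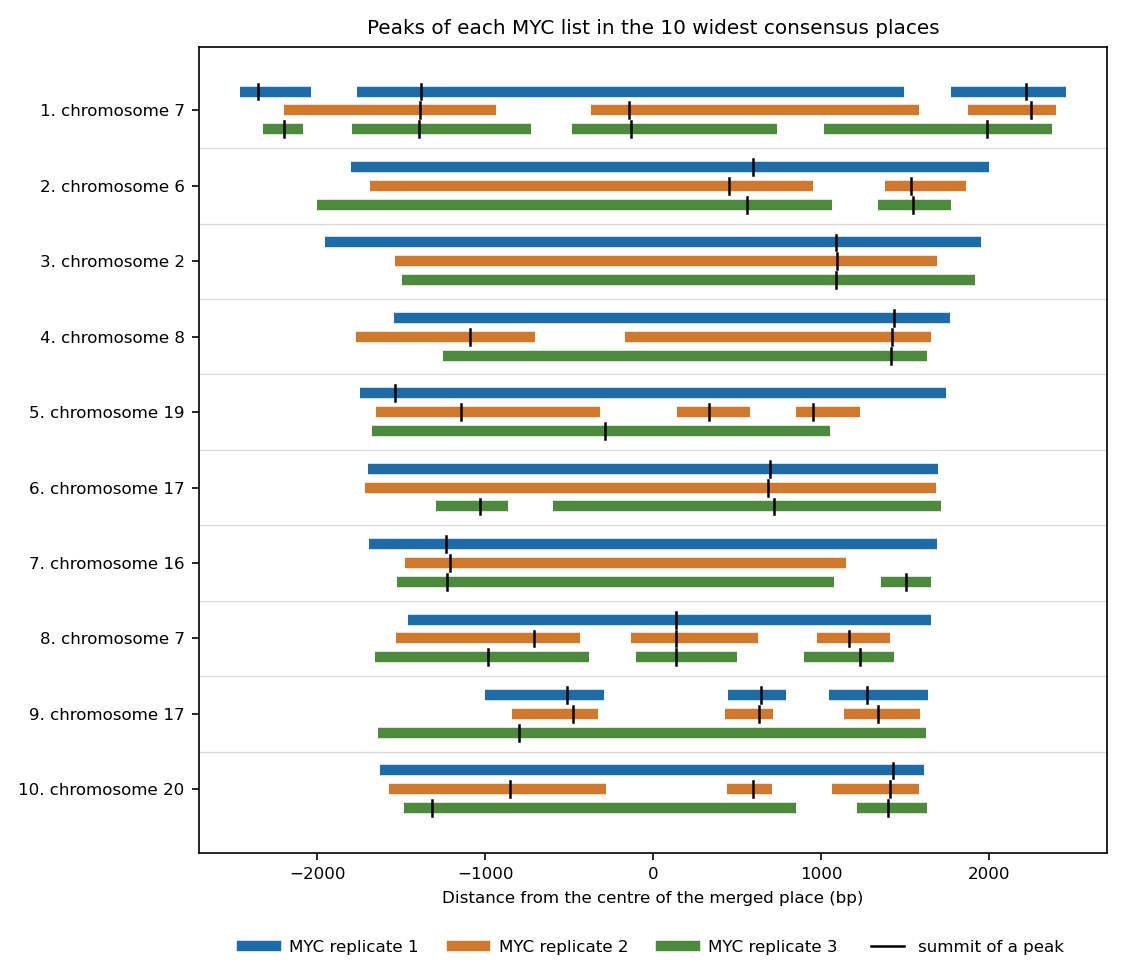
Each block shows 1 of the 10 widest places in order of width, with the peaks of replicates 1, 2 and 3 as bars from top to bottom, their summits as black ticks and the distance from the centre of the place in bp. The widest place (4916 bp, chromosome 7) had 3, 3 and 4 peaks, the third (3902 bp, chromosome 2) had 1 peak in each list with summits within 6 bp, and in the ninth (3278 bp, chromosome 17) 1 peak of replicate 3 spanned 3 peaks of each other list.

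Over all broad places, summits formed 1 group at 86 places (26.3%), 2 at 151 (46.2%), 3 at 73 (22.3%), 4 at 15 and 5 at 2. The share with 2 or more groups was 73.7% (95% exact binomial interval 68.6% to 78.4%), against 16.4% of all consensus places and 36.1% of places of 1000 bp to under 2000 bp. Fewer of these groups were shared between lists. Summits of at least 2 lists formed 2 or more groups at 85 broad places (25.99%), against 1.94% of all consensus places and 6.25% of those of 1000 bp to under 2000 bp. Groups with summits of all 3 lists numbered 2 or more at 3 of the 17133 consensus places, all of them broad. A list gives 1 summit per peak, so a long unbroken peak hides any further maximum under it. Neighbouring groups, shared or not, lay a median of 879 bp apart, with quartiles of 629 bp and 1182 bp. Between groups with summits of at least 2 lists the median was 1250 bp over 95 spacings, with quartiles of 951 bp and 1507 bp.

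The strongest summits of the 3 lists were in 1 group at 227 of the 326 broad places with peaks in all lists (69.6%). The share was lower than the 86.7% of all such consensus places and the 77.4% of those of 1000 bp to under 2000 bp, with no test of the difference. The distance between them had a median of 31 bp for replicates 1 and 2, 33 bp for replicates 1 and 3 and 39 bp for replicates 2 and 3. Medians over narrower consensus places were 34 bp, 35 bp and 35 bp. The upper tail differed: the distance was over 1206 bp at 5% of broad places for replicates 1 and 2, against 352 bp at the same percentile of narrower ones, and a wider place also allows larger distances. Among broad places with 2 or more groups, all 3 lists put their strongest summit in the same one at 141 of 240 (58.8%). Among all consensus places with 2 or more groups the share was 27.4%, and at 1000 bp to under 2000 bp it was 36.0%. Where each list has 1 peak, 2 or more groups mean that the strongest summits cannot all share one. Of the 241 broad places with 2 or more groups, 30 were of this kind. The shares were not adjusted for the number of such places in each class, so they do not compare agreement between classes.

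The 86 places with 1 group were all places with 1 peak in each list. The rules nearly fix this, because peaks of one list lay at least 230 bp apart and summits over 200 bp apart were split. At these 86 places the summits spanned a median of 34.5 bp although the places were a median of 2190 bp wide. Their median geometric mean fold enrichment was 11.2, against 7.80 at the 241 places with 2 or more groups. At the broad places as a whole, the strongest summit lay a median of 28.3%, 28.1% and 28.2% of the width from the nearer edge in replicates 1, 2 and 3, against 31.5%, 31.1% and 31.4% at places of 1000 bp to under 2000 bp and 37.6%, 36.7% and 36.9% at all narrower consensus places.

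Fold enrichment of the broad places was higher than that of the rest, by the measure of each place's strongest peak. The median was 8.54, 7.54 and 8.63 in replicates 1, 2 and 3, and at narrower consensus places 5.01, 4.68 and 5.01. The ratio of medians was 1.70, 1.61 and 1.72, a mean of 1.68 ± 0.0594 (SD, n = 3). Against places of 1000 bp to under 2000 bp it was 1.26 ± 0.0416 (SD, n = 3). The strongest summits held a median of 94, 58 and 54 fragments, against 53, 35 and 32 at narrower places. Width and fold enrichment come from the same fragments and are not independent measures.

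Wide places were found at every level of strength. Across 12368 places with peaks in all lists, merged width and geometric mean fold enrichment had a Spearman's rho of 0.398, a description of places that share the same 3 libraries. The share of broad places was 6 of 2150 (0.279%) under 4-fold, 75 of 5274 (1.42%) from 4 to 6, 70 of 2370 (2.95%) from 6 to 8 and 68 of 1162 (5.85%) from 8 to 10. It was slightly lower from 10 to 15, at 54 of 982 (5.50%), and higher again at 30 of 272 (11.0%) from 15 to 20 and 18 of 129 (14.0%) from 20 to 30. At 30-fold or more 5 of 29 places (17.2%) were broad, and 14 of the 100 strongest places were. Conversely, 40 broad places (12.3%) had a geometric mean fold enrichment under 5, and a peak of one list spanned several of another at 31 of these 40.

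**Figure D3:**
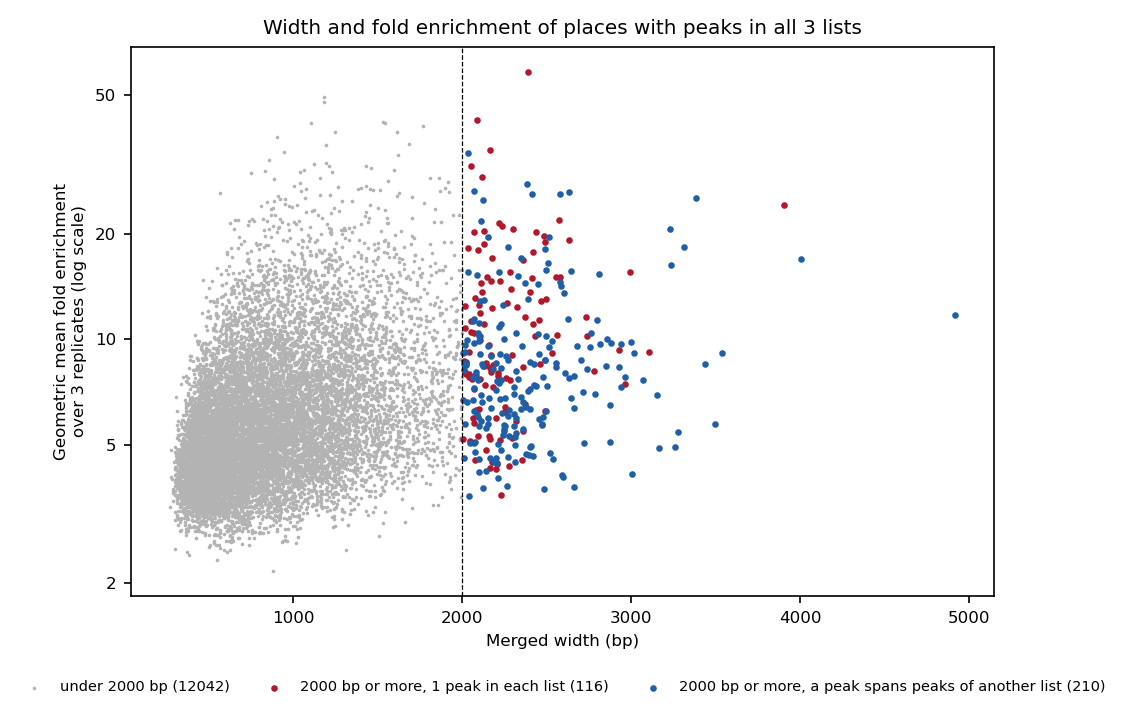
Points are the 12368 places with peaks in all 3 lists, by merged width in bp and geometric mean fold enrichment on a log scale, and the dashed line marks 2000 bp. Broad places with 1 peak in each list (116, red) had a median of 9.26-fold and those where a peak spanned several of another list (210, blue) 7.77-fold, and both ran from under 4-fold to over 30-fold.

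The strongest broad place lay on chromosome 20 from 17948391 to 17950781, with fold enrichments of 56.0, 54.6 and 64.9. It was 1 peak in each list, 2391 bp, 1893 bp and 1833 bp long, and its summits lay within 17 bp. Next came chromosome 7 from 99697890 to 99699975, with 38.9, 40.7 and 48.2, and chromosome 17 from 79828081 to 79830245, with 33.6, 36.6 and 34.4. Both were again 1 peak in each list, with summits within 37 bp and 14 bp. A place on chromosome 2 (70313225 to 70315258) had 35.5, 28.8 and 39.3, and one on chromosome 8 (145733470 to 145735518) had 31.5, 28.8 and 33.9. The former had a single peak of 2034 bp in replicate 1, of 1182 bp in replicate 2, and a main peak of 1206 bp with a flanking one of 285 bp in replicate 3.

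The remaining 5 of the 10 strongest had mean fold enrichments of 29.1 ± 0.823 on chromosome 5 (175963114 to 175965232), 27.9 ± 2.004 on chromosome 8 (101732858 to 101735240) and 26.8 ± 4.81 on chromosome 1 (203829218 to 203831286), each as SD with n = 3. The mean was 26.6 ± 3.70 on chromosome 16 (21529599 to 21532231) and 26.8 ± 7.19 on chromosome 2 (85764902 to 85767480). The last place had the largest spread of the 10, with 18.6 in replicate 1 against 29.8 and 32.0 in the others. Its summit in replicate 1 held the most fragments, 325 against 208 and 186, over a local background of 2.12 times the genome-wide level against 1.03 and 1.02. The first of these 5 was 1 peak in each list, and at the other 4 a peak of one list spanned several of another. Neighbours in this order differed by less than the larger of their SDs.

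Across the broad places fold enrichment was correlated between lists. Log-scale Pearson's r of fold enrichment across 326 places was 0.917 for replicates 1 and 2, 0.887 for replicates 1 and 3 and 0.925 for replicates 2 and 3. For the length covered by peaks of a list, which is tied to the width used in the choice, it was lower. The values were 0.448, 0.324 and 0.552 in the same order. The coefficient of variation of fold enrichment over the 3 replicates had a median of 14.2%. Replicate 1 was higher than replicate 2 at 241 of 326 places (73.9%) and higher than replicate 3 at 173 (53.1%), and replicate 2 was higher than replicate 3 at 96 (29.4%). These counts were not made over all consensus places, and fold enrichment was not scaled between lists. At narrower consensus places replicate 2 also had the lowest median, 4.68 against 5.01 in each of the other lists.

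To measure width and strength in data that the choice had not used, broad places were chosen again from each pair of lists and read in the list left out. The pairs gave 138, 299 and 286 places of 2000 bp or more, with replicate 1, 2 and 3 left out in turn. The replicate left out had a peak at 138 of 138, 298 of 299 and 286 of 286 of them. Its peaks that overlapped a place had a median total length of 2189 bp, 1734 bp and 1745 bp per place. At the narrower consensus places of the same pair the medians were 741 bp, 527 bp and 541 bp. The medians of length and fold enrichment leave out places without a peak in the replicate left out. It had a peak at 97.7%, 83.4% and 85.4% of the narrower places. Each overlapping peak was counted in full, including any part outside the place. The difference was 1286 ± 140.2 bp (SD, n = 3), and the ratio was 3.16 ± 0.178. At places 1000 bp to under 2000 bp wide in the pair, the medians were 1297 bp, 923 bp and 944 bp. This total length was itself 2000 bp or more at 108 of 138 places in replicate 1 (78.3%), but only at 83 of 298 in replicate 2 (27.9%) and 83 of 286 in replicate 3 (29.0%). Median fold enrichment in the list left out was 9.71, 7.73 and 8.68, against 5.89, 5.04 and 5.46. Both measures were higher at broad places in each of the 3 replicates. A two-sided exact permutation test that flips the signs of the 3 differences gave p = 0.25 for both, the smallest value it can reach, and p = 0.25 after Benjamini-Hochberg adjustment over 6 such comparisons. The test could therefore not pass 0.05, and the 3 differences rest on overlapping pairs of the same libraries and are not independent.

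The list left out also divided the broad places more often. It had 2 or more peaks at 13.8%, 44.6% and 46.2% of the broad places where it had a peak, against 0.723%, 3.48% and 3.76% of the narrower ones. Against places of 1000 bp to under 2000 bp the ratio was 3.85 ± 0.0497 (SD, n = 3). A longer place can be divided at more positions, and the ratio was not adjusted for width.

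**Figure D4:**
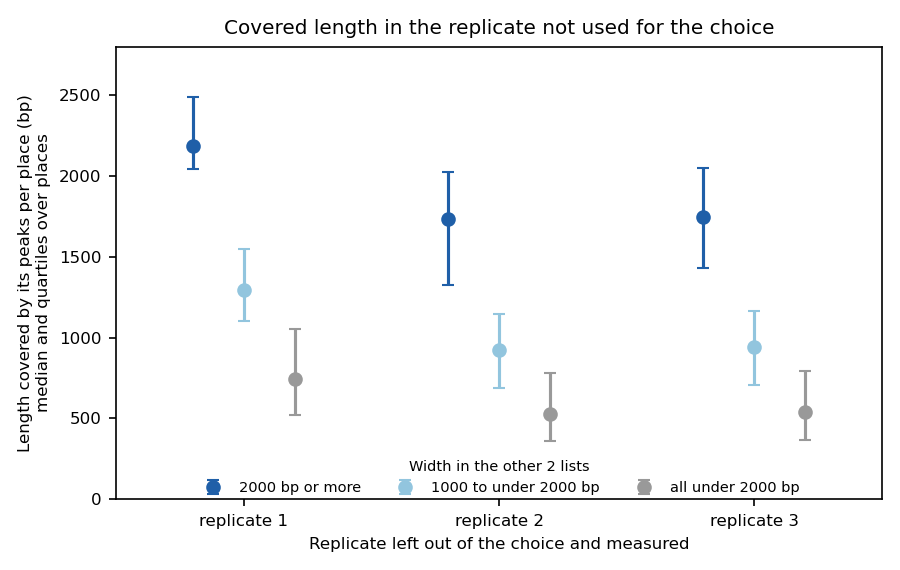
Points are medians and bars are quartiles over places chosen in the other 2 lists that had a peak in the replicate left out. The value is the total length in bp of the peaks of the replicate left out that overlapped a place, each counted in full. Broad places had medians of 2189 bp, 1734 bp and 1745 bp in replicates 1, 2 and 3, above both other classes, and in replicates 2 and 3 the median was below the 2000 bp used in the choice.

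For the local background the peak caller uses signal near a peak or, where that is lower, the genome-wide level. No source used here says whether that signal came from a control library. The local background differed little between the classes. Its median relative to the genome-wide level was 1.27, 1.07 and 1.05 at the strongest peak of broad places, and 1.19, 1.05 and 1.05 at narrower consensus places. The ratio of medians was 1.03 ± 0.0363 (SD, n = 3), a difference from 1 within the spread between replicates. In replicate 1, 17.1% of broad places were at the genome-wide level, against 26.8% of narrower ones, and in replicates 2 and 3 the shares were 37.4% and 36.4% against 41.1% and 40.4%. A background of 1.5 times or more was found at 29.7%, 8.90% and 10.4% of broad places, against 23.9%, 11.8% and 13.7%. The share at the genome-wide level was lower at broad places in all 3 replicates, while the share at 1.5 times or more was higher in replicate 1 and lower in the others. The background at the widest place on chromosome 7 was 1.05, 1.00 and 1.01, and at the tenth widest, on chromosome 20 from 30181022 to 30184279, it was 2.48, 1.74 and 1.60.

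Broad places occurred on all 22 chromosomes. Chromosome 1 held 48, chromosome 17 held 35, and chromosomes 7 and 19 held 22 each. As a share of the consensus places of a chromosome, they ranged from 2 of 357 (0.560%) on chromosome 4 to 35 of 1213 (2.89%) on chromosome 17, around the 1.91% of all. The exact 95% binomial interval was 2.02% to 3.99% for chromosome 17 and 0.0679% to 2.01% for chromosome 4. These are the extremes of 22 values, neighbouring places are not independent, and no test of the difference was run. On chromosome 20 the broad places had a relative background of 1.93 (the mean over replicates of the median), and their share of 1.88% (15 of 799) was close to the whole.

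**Figure D5:**
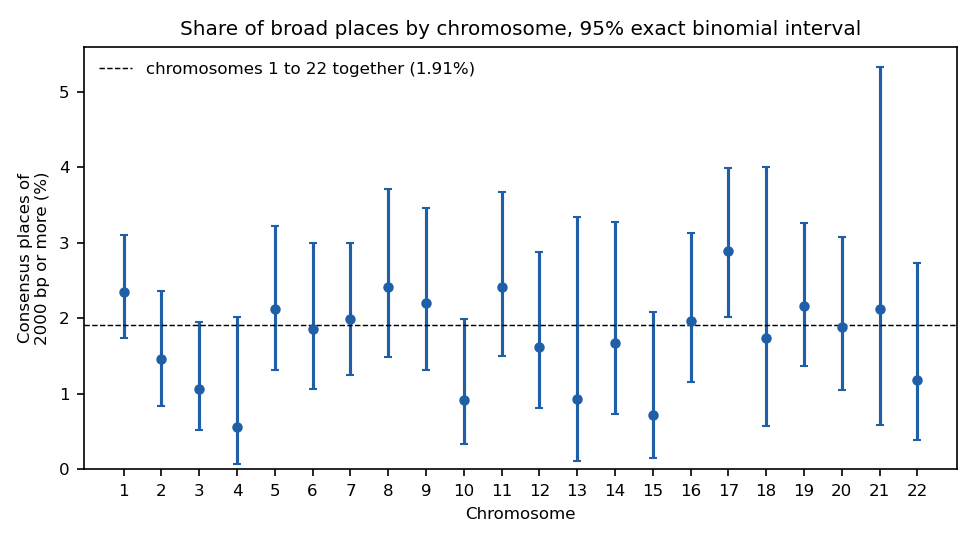
Points give broad places as a percentage of the consensus places of each chromosome, with 95% exact binomial intervals that cover counting error only. The dashed line is the 1.91% of chromosomes 1 to 22 together, and it lies within the interval of every chromosome other than 17.

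The surroundings of the broad places were slightly denser in other places. The nearest other consensus place lay at a median of 14131 bp, against 18597 bp for narrower consensus places and 20308 bp for those of 1000 bp to under 2000 bp. Another consensus place was within 5000 bp of 31.8% of broad places (95% exact binomial interval 26.8% to 37.2%) and of 26.3% of narrower ones. The interval treats places as independent, which neighbouring places are not, and no test of the difference was run. The median number of consensus places within 100000 bp was 3 in each class. Another broad place lay within 20000 bp of 12 of the 327 (3.67%), a share not set against an expected value. These 12 formed 6 pairs. The closest was on chromosome 20, from 60933126 to 60935338 and from 60935833 to 60938495, only 494 bp apart, with mean fold enrichments of 8.05 ± 1.18 and 3.78 ± 0.121 (SD, n = 3). On chromosome 14 places from 105553115 to 105555476 and from 105557793 to 105560571 were 2316 bp apart, at 5.55 ± 1.16 and 8.37 ± 2.52. On chromosome 17 a place from 80054988 to 80057425 with a mean of 20.3 ± 1.05 lay 5991 bp from one ending at 80065625 with 7.98 ± 1.80 (SD, n = 3).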

How the data were processed

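The 3 MYC peak lists of ONS76 cells were analysed. Per the labels and the study's methods, the authors aligned reads to hg19 with Bowtie2 and ran MACS2 on each library with a q-value threshold of 0.05. No source used here gives the control library, the versions or the treatment of duplicates. The deposited lists hold, per peak, a fold enrichment (a ratio over local background with 1 added to both), −log10 p-value and −log10 q-value, a score of 10 times the last, and a summit. None of these was scaled between replicates.

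Coordinates are hg19, counted from 1. The genome given was hg38, and 715 peaks on 13 chromosomes lay past its chromosome ends, so the planned results on gene starts, E-boxes and gene families were not run. Fragments and background at each summit were recovered from fold and −log10 p, within 0.001 for 100% of peaks. Depth is known only through this background, and intervals cover counting error only. Merging and recovery were tested on simulated data. Places were named by rule: the 10 widest, the 10 with the highest geometric mean fold, the 5 with most peaks in a list, and 5 on each side of the threshold. The members and these rules were chosen with earlier results of these data known. Python 3.11.15, pandas 2.3.3 and scipy 1.17.1 were used.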

Additional observations from a re-analysis of the deposited data

How the results depend on the processing

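The number of broad places stayed between 271 and 334 under q-values of 0.01 or 0.001, other overlap rules, 3 of 3 lists, equal list lengths, the widest single peak, or chromosome X added. It was 1167, 74 and 18 at widths of 1500, 2500 and 3000 bp, and 138 to 299 with 2 replicates, the fewest being without replicate 1. The share with a spanning peak was 44.1%, 81.1% and 88.9% at those widths and 46.5% to 49.2% without a replicate, where fewer pairs of lists remain. The share with 2 or more summit groups was 57.8%, 83.8% and 88.9%, and 53.8% to 59.9% without a replicate. The fold ratio was 1.58, 1.89 and 1.86 at those widths, 1.52 with 3 of 3 lists, 1.59 with equal lists of 16612 peaks, 1.54 with the mean of all peaks and 1.26 against places of 1000 bp to under 2000 bp, and it moved by less than its SD without a replicate. The relative background moved by more than its SD in 1 of 14 alternatives, to 1.10 at 3000 bp. The ratio of total peak length in the list left out was 2.57 and 4.05 at 1500 and 2500 bp and 2.95 to 3.29 by replicate, with the same direction in all 5 alternatives. Where no construction of the alternative shows it, the cause was not tested. No paired analysis was possible because no IgG values were analysed here to pair with the MYC replicates by number, and the comparison in the list left out is already within each replicate. Summits held fewer fragments in replicates 2 and 3, and whether this bears on the splitting of their peaks was not tested.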

Other observations

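Chromosome X, which lies outside the rule, had 3 places of 2000 bp or more among 217 consensus places. They began at 153236598, 153597055 and 153768901 and were 2336 bp, 2122 bp and 2657 bp wide. Mean fold enrichment was 9.62 ± 1.97, 4.61 ± 0.693 and 5.35 ± 0.927 (SD, n = 3). At each of them a list had 2 peaks where another had 1.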
